A study of Mus musculus with 12 samples.

Results

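Pdlim1 (ENSMUSG00000055044), Spp1 (ENSMUSG00000029304) and Cass4 (ENSMUSG00000074570) were followed across migratory dendritic cells (DCs) of 3 mouse organs. They are 3 of the 55401 genes in each deposited table, each matched 1 row by its symbol, and all 3 passed the filter on low counts. They were put together as genes high in pancreas, on values of these same libraries. That name holds against liver for all 3 genes, but against duodenum only for Pdlim1. In Spp1 and Cass4 the pancreas and duodenum libraries overlapped, so what the 3 genes had in common was a low level in liver.

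The study sequenced polyA RNA of sorted DCs from pancreas, liver and duodenum of B6 mice aged 6 to 8 weeks, with no treatment or mutation in the labels. Each organ gave 4 libraries, and each library came from a pool of 2 mice. The gate took live CD45+ lineage-negative cells with CD11c, high MHC class II and CD103 but no CD11b, the surface phenotype by which cDC1, type 1 conventional DCs, are sorted. By its title, the study asked how the 3 organs influence each other's immunity through lymph nodes they share.

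Pdlim1 encodes a PDZ and LIM domain protein that binds alpha-actinin and sits on actin filaments, and it is also known to hold the p65 subunit of NF-kappaB in the cytoplasm. Spp1 encodes osteopontin, a secreted phosphoprotein of bone matrix that T cells, macrophages and DCs also make, and that signals through integrins and CD44. Cass4 encodes the most divergent of the CAS scaffold proteins, which carry signals from focal adhesion kinase and Src kinases to the cytoskeleton. DCs depend on such adhesion and cytoskeletal proteins when they leave a tissue for a lymph node.

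The DNA just upstream of the 3 start sites is shown because the genes shared their low level in liver. RefSeq promoters on the GRCm38.p6 build matched all 3 symbols. The expression files rest on GRCm39, and these coordinates were not converted. Each line gives the 199 bases before the start, the longest stretch free of annotated exons in all 3 genes. Capitals mark matches to any of 9 motifs searched on both strands. For Spp1, the upstream one of its 2 RefSeq starts was taken.
Pdlim1: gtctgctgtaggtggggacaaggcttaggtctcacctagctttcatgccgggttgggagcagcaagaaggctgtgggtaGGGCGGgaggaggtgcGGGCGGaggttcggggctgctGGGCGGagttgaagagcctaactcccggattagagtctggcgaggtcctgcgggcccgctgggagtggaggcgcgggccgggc
Spp1: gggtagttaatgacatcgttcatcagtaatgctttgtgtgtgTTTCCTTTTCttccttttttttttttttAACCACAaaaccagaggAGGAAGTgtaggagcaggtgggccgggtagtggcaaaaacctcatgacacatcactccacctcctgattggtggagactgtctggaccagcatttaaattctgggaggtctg
Cass4: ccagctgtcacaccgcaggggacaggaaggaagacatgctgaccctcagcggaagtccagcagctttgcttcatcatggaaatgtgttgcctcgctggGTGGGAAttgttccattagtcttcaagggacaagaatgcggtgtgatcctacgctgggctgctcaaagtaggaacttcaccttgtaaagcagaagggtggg
The Pdlim1 stretch lies on the minus strand at chr19:40271617-40271815, the Spp1 stretch on the plus strand at chr5:104434912-104435110, and the Cass4 stretch on the plus strand at chr2:172393445-172393643.

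The 3 stretches were unlike each other in composition and in motifs. Pdlim1 had 66.8% G and C and 3 GC boxes (GGGCGG), a motif that 31% of the 32851 promoters of this length in the table also held. The Spp1 stretch had 44.7% G and C and 1 match each to the RUNX letters AACCACA (3.47% of promoters), the ETS letters AGGAAGT (6.29%) and a spaced IRF motif (2.27%). Cass4 had 53.3% G and C, against a median of 52.8% over all promoters, and 1 match to the RBPJ letters GTGGGAA (4.26%). No stretch held the AP-1 letters TGANTCA, the E-box CACGTG, a spaced NF-kappaB motif or the TATA box TATAAA, which 5.44%, 5.22%, 3.89% and 9.93% of promoters held. No motif searched was found in more than 1 of the 3 stretches.

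The libraries held 221 to 356 M (mega) estimated counts, with a median of 268 M. The lowest value of the 3 genes, Cass4 in liver 1, rested on 371 estimated counts. How many RNA molecules lay behind such counts was not tested. Levels are in TPM, which scales transcript abundance for gene length and library size. The 10 cDC1 markers summed to 1901 to 2087 TPM in pancreas, 2117 to 2344 TPM in liver and 1568 to 2138 TPM in duodenum. Irf8 and Naaa were the largest parts of the sum in each organ. Clec9a, Cadm1, Zbtb46, Flt3 and Naaa had their lowest mean in duodenum, and Batf3, Tlr3 and Itgae their highest. Cadm1 averaged 110, 121 and 61.4 TPM and Batf3 146, 174 and 192 TPM in pancreas, liver and duodenum. Of the sort markers, Itgae (CD103) stood at 83.0 to 93.9 TPM in pancreas, 73.2 to 106 TPM in liver and 112 to 167 TPM in duodenum. Itgam (CD11b), which the gate excluded, stayed at 1.30 TPM or lower in every library. Over 44624 genes tested, 494 were called between pancreas and liver, 3437 between pancreas and duodenum and 3265 between liver and duodenum, by edgeR's quasi-likelihood test at a Benjamini-Hochberg adjusted p below 0.05. The share of those calls that was higher in pancreas than in liver was 61.5%, and 41.4% with limma on log2(TPM + 0.1). Between liver and duodenum, 46.0% of calls were higher in liver, 35.3% with DESeq2 size factors and 63.5% when libraries were scaled by their totals, which also moved the median log2 difference of all genes to 0.25 from 0.10. Itgae was lower than in duodenum by -0.77 in pancreas and -0.81 in liver (adjusted p = 0.00899 and 0.00704, edgeR). Itgax (CD11c), at 38.2, 58.7 and 67.3 TPM in pancreas, liver and duodenum, was lower in pancreas than in duodenum by -0.89 (adjusted p = 0.00293, edgeR). The other sort markers passed no test (lowest adjusted p = 0.427, for Ptprc in pancreas against duodenum, edgeR).

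Pdlim1 separated the 3 organs without overlap. It was at 19.3, 28.6, 34.7 and 22.6 TPM in pancreas replicates 1 to 4, against 1.76, 1.41, 1.08 and 1.69 TPM in liver and 7.80, 6.24, 8.02 and 7.71 TPM in duodenum. Every pancreas library was above every duodenum library, and every duodenum library above every liver library. By mean TPM it ranked 3266th of all genes in pancreas, 14901st in liver and 7477th in duodenum. The means were 26.3 ± 6.801 TPM in pancreas, 1.49 ± 0.31 TPM in liver and 7.44 ± 0.81 TPM in duodenum (SD, n = 4 each). The fitted log2 difference was 4.27 ± 0.26 between pancreas and liver and 1.77 ± 0.23 between pancreas and duodenum (SE). These are given as a description, with no test, because the gene was chosen for them. Liver cells with less Pdlim1 RNA each and fewer liver cells that hold it cannot be told apart in bulk RNA, and the same is true of every gene below.

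Spp1 was the most abundant of the 3 genes in each organ. It was at 32.4, 36.8, 37.5 and 23.7 TPM in pancreas replicates 1 to 4, against 5.96, 7.85, 2.75 and 4.90 TPM in liver and 23.3, 20.8, 34.0 and 21.6 TPM in duodenum. Pancreas 4 lay within the duodenum range, and duodenum 3 lay above pancreas 1. No liver library came near either. Means were 32.6 ± 6.35 TPM in pancreas, 5.37 ± 2.13 TPM in liver and 24.9 ± 6.14 TPM in duodenum (SD, n = 4 each). The log2 difference was 2.72 ± 0.29 between pancreas and liver, and 0.32 ± 0.27 between pancreas and duodenum (SE), again with no test.

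By mean TPM, Cass4 was the lowest of the 3 genes in each organ and had almost the same level in pancreas as in duodenum. In liver 3 it stood above Pdlim1. It was at 6.53, 5.77, 8.14 and 7.91 TPM in pancreas replicates 1 to 4, against 0.395, 0.602, 1.74 and 0.629 TPM in liver and 7.49, 5.96, 6.16 and 6.70 TPM in duodenum. The pancreas libraries spanned the whole duodenum range. Liver 3 was well above the other liver libraries and still far below every library of the other organs. Means were 7.09 ± 1.13 TPM in pancreas, 0.842 ± 0.609 TPM in liver and 6.58 ± 0.68 TPM in duodenum (SD, n = 4 each). The log2 difference was 3.13 ± 0.40 between pancreas and liver, and 0.04 ± 0.37 between pancreas and duodenum (SE). For all 3 genes the 4 pancreas libraries were above the 4 liver libraries, as was so for 2.57% of all genes tested. Pancreas was above duodenum without overlap for 1 of the 3, against 8.21% of genes tested.

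**Figure D1:**
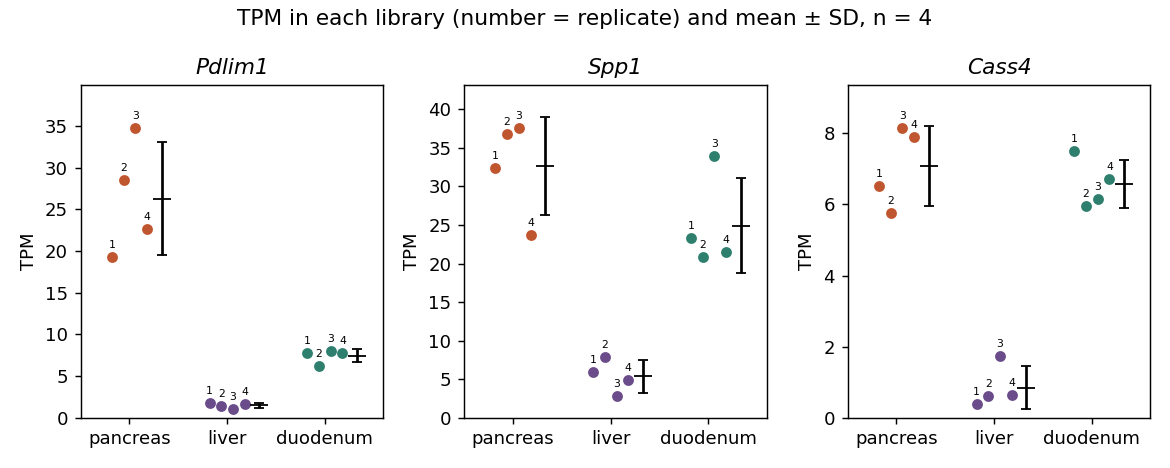
TPM of Pdlim1, Spp1 and Cass4 (vertical axes, each from 0) in the 4 libraries of pancreas, liver and duodenum. Points are libraries numbered by replicate, and the black bar beside them is the mean ± SD. Pdlim1 forms 3 separate levels, while Spp1 and Cass4 are low in liver and overlap between pancreas and duodenum.

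Liver against duodenum uses the same liver libraries whose low values entered the choice of the genes, so it too is given as a description, with no test. All 3 genes had lower values in liver, each without overlap of the 4 liver and 4 duodenum libraries. Pdlim1 differed by -2.50 ± 0.24 on the log2 scale (SE), which is 5.65-fold lower in liver. Spp1 differed by -2.40 ± 0.28 and was 5.27-fold lower. Cass4 differed by -3.09 ± 0.40 and was 8.53-fold lower, or 14.4-fold lower without liver 3. The SE of the 3 differences left no clear order among the genes.

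Set against all genes, 3.95% of those tested were called lower and 3.37% higher in liver than in duodenum, and 4.48% had liver below duodenum without overlap. Liver was called lower than both other organs for 0.206% of genes. All 4 liver libraries lay below all 8 others for 0.511% of genes, Pdlim1, Spp1 and Cass4 among them; they were chosen on values that include the liver libraries.

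Because TPM is scaled for length, the genes can be set beside each other. Pdlim1 reached 0.595 to 0.954 times the TPM of Spp1 in pancreas, against 0.1798 to 0.393 times in liver and 0.236 to 0.358 times in duodenum. Spp1 exceeded Cass4 by 3.00 to 6.37 times in pancreas, 1.58 to 15.1 times in liver and 3.11 to 5.51 times in duodenum. The low end in liver was liver 3, which had the lowest Spp1 and the highest Cass4 of the 4. The ratio of Pdlim1 to Spp1 was higher in every pancreas library than in any other library, and that of Spp1 to Cass4 overlapped between the 3 organs.

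The close paralogs of Pdlim1 did not have its order of organs. Pdlim2, which targets p65 for breakdown, averaged 32.9 ± 4.05 TPM in pancreas, 35.2 ± 3.87 TPM in liver and 28.4 ± 1.68 TPM in duodenum (SD, n = 4 each). Its log2 differences were 0.00 in pancreas minus liver and 0.15 in both comparisons with duodenum, and none passed the test (lowest adjusted p = 0.711, edgeR). Pdlim4, another actin-binding member, was lowest in pancreas, at 3.58 ± 2.14 TPM in pancreas, 16.9 ± 7.14 TPM in liver and 28.7 ± 1.98 TPM in duodenum. Its pancreas level was below that of duodenum by -3.04 ± 0.45 on the log2 scale (SE, edgeR, adjusted p = 0.000604) and than in liver by -2.12 ± 0.43 (adjusted p = 0.0273, edgeR). The call against liver ended with only pancreas and liver in the fit, and when any of 5 single libraries was left out (liver 2, 3 or 4 or pancreas 1 or 4, adjusted p up to 0.0994, edgeR).

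Pdlim5 and Pdlim7, members with 3 LIM domains, were lower in liver than in duodenum by -0.53 ± 0.13 and -0.82 ± 0.23 (SE, adjusted p = 0.0261 and 0.0464, edgeR). The call of Pdlim5 ended with library totals, with only liver and duodenum in the fit, and without any of 5 single libraries (adjusted p up to 0.0805, edgeR), which were liver 2 and 4 and duodenum 1, 3 and 4. That of Pdlim7 ended without any of 7 (adjusted p up to 0.116, edgeR), which were liver 1, 2 and 4, duodenum 1, 3 and 4 and pancreas 2. Pdlim3, a muscle gene, was at 0.931 TPM or lower in every library and passed no test (lowest adjusted p = 0.19, edgeR).

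**Figure D2:**
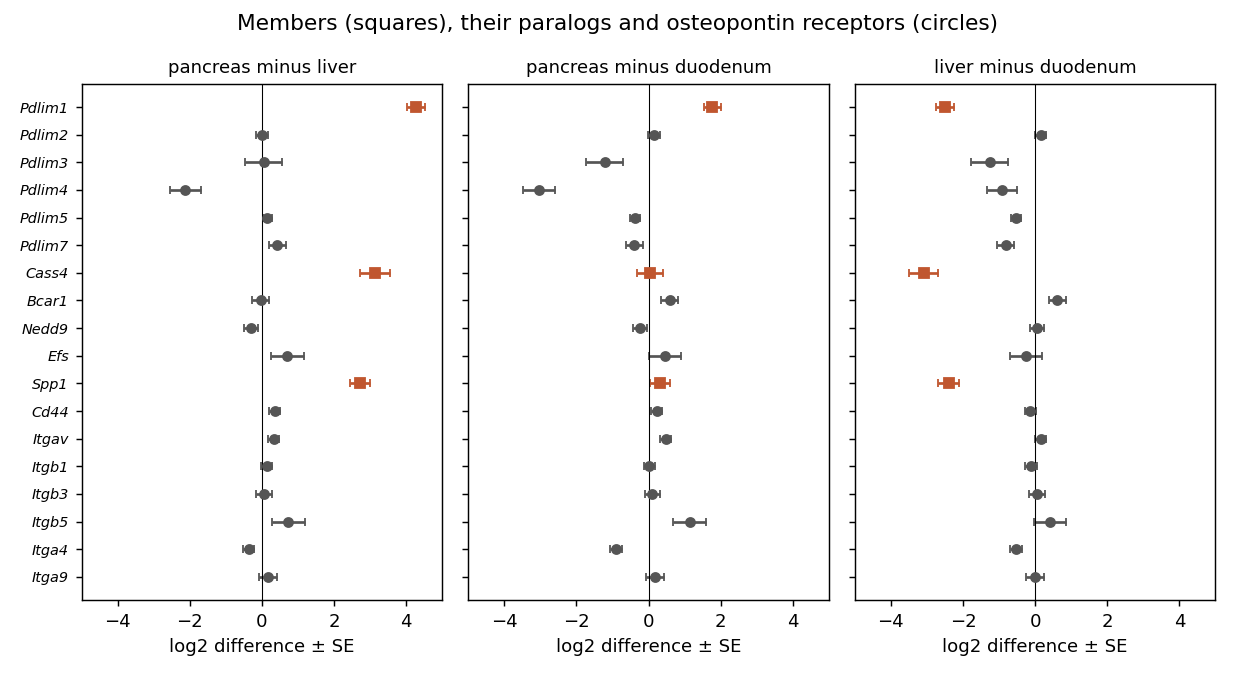
Log2 difference ± SE (horizontal axes) for Pdlim1, Spp1 and Cass4 (squares) and for their paralogs and the osteopontin receptors (circles), in 3 comparisons of organs. The squares lie at 2.72 to 4.27 in pancreas minus liver and at -3.09 to -2.40 in liver minus duodenum. Of the circles, Pdlim4 lies farthest from 0, at -3.04 in pancreas minus duodenum.

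Around Pdlim1, those genes of the actin and focal adhesion machinery that passed the test against duodenum were nearly all lower, both in pancreas and in liver. Of 32 listed genes of PDZ-LIM, alpha-actinin, zyxin and related proteins, all tested, 1 was higher and 10 were lower in liver than in duodenum, which is 34.4% against 7.32% of all genes. In pancreas against duodenum it was also 1 higher and 10 lower, 34.4% against 7.7% of all genes (3.76% higher and 3.94% lower). Between pancreas and liver 1 was higher and 2 were lower, 9.38% against 1.11%. Neither these shares nor those of the osteopontin and CAS lists below were matched to all genes for expression level. The list's median log2 difference was -0.42 in liver minus duodenum, -0.19 in pancreas minus duodenum and 0.05 in pancreas minus liver, where all genes had medians of 0.10, 0.09 and -0.01.

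Actn1, which encodes an alpha-actinin, was at 17.9 ± 1.97 TPM in pancreas, 36.4 ± 5.21 TPM in liver and 73.5 ± 15.2 TPM in duodenum (SD, n = 4 each). It was lower in pancreas than in duodenum by -2.11 ± 0.20 (SE, adjusted p = 1.15e-05, edgeR) and in liver than in duodenum by -1.18 ± 0.20 (adjusted p = 0.00176, edgeR). In pancreas minus liver it was at -0.93 ± 0.20 (adjusted p = 0.0339, edgeR), a call that ended with DESeq2 size factors and without any of 9 single libraries (adjusted p up to 0.125, edgeR), all but duodenum 2 and 3 and pancreas 3. The Actn1 order, lowest in pancreas, was thus not that of Pdlim1. Actn4, a further alpha-actinin gene of the list, did not have the Actn1 order. It was at -0.22 in pancreas minus duodenum, 0.19 in pancreas minus liver and -0.41 in liver minus duodenum. Actn4 passed no test (lowest adjusted p = 0.364, for liver against duodenum, edgeR). Palld, which encodes the actin scaffold palladin, was at 12.5 ± 2.73 TPM in pancreas, 9.46 ± 2.72 TPM in liver and 29.8 ± 7.54 TPM in duodenum. It was lower than in duodenum by -1.84 ± 0.26 in liver and -1.33 ± 0.25 in pancreas (adjusted p = 0.000419 and 0.00406, edgeR).

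Vasp, which speeds actin filament growth, was at 54.7 ± 1.14 TPM in pancreas, 56.3 ± 2.40 TPM in liver and 97.8 ± 11.1 TPM in duodenum (SD, n = 4 each), with -0.96 ± 0.13 in liver minus duodenum (SE, adjusted p = 0.000364, edgeR). Fhl3, a LIM-only protein, was lower than in duodenum by -1.47 ± 0.22 in liver and -1.34 ± 0.22 in pancreas (adjusted p = 0.000725 and 0.00129, edgeR). Zyx, which encodes the focal adhesion protein zyxin, was the 1 gene of the list called higher in pancreas, at 88.2 ± 2.83 TPM against 57.0 ± 5.33 TPM in liver and 55.6 ± 7.69 TPM in duodenum. Its log2 difference was 0.72 ± 0.14 against liver (adjusted p = 0.0245, edgeR) and 0.59 ± 0.14 against duodenum (adjusted p = 0.0204, edgeR). The Zyx call against liver ended with DESeq2 size factors and without any of 7 single libraries (adjusted p up to 0.108, edgeR), that is liver 1, 2 or 4 or any pancreas library. Against duodenum it ended with DESeq2 size factors or the DESeq2 test and without any of 6 (adjusted p up to 0.0964, edgeR), namely liver 1 and 2, duodenum 1 and pancreas 1, 3 and 4.

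Osteopontin acts on cells through integrins and CD44, whose genes were measured beside Spp1. Cd44 averaged 73.2 ± 4.19 TPM in pancreas, 61.3 ± 5.95 TPM in liver and 59.5 ± 10.5 TPM in duodenum (SD, n = 4 each). Itgav and Itgb1, which encode subunits of osteopontin-binding integrins, averaged 44.2 ± 5.71 and 73.0 ± 4.86 TPM in pancreas, 37.9 ± 2.47 and 71.2 ± 3.65 TPM in liver and 30.5 ± 2.80 and 68.3 ± 12.6 TPM in duodenum. Their tests did not pass (lowest adjusted p of the 3 genes 0.0752, for Itgav in pancreas against duodenum, edgeR). Itgb3, Itgb5 and Itga9, 3 further receptor genes, were low, with means of 2.10 TPM or less in each organ.

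Itga4, the alpha-4 integrin gene, was lower in pancreas at 27.6 ± 3.54 TPM, against 48.7 ± 8.32 TPM in duodenum (SD, n = 4 each). The log2 difference was -0.90 ± 0.16 (SE, adjusted p = 0.00222, edgeR). Itga5, the fibronectin receptor subunit, was at 9.60 to 12.3 TPM in pancreas, 7.79 to 9.22 TPM in liver and 10.95 to 13.5 TPM in duodenum, so that, as in Spp1, all 4 liver libraries lay below the 8 others. It was lower in liver than in duodenum by -0.67 ± 0.17 (adjusted p = 0.0234, edgeR) until liver 4, duodenum 3 or duodenum 4 was left out (adjusted p up to 0.0702, edgeR).

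Among the enzymes that modify osteopontin, Tgm2 stood out. It encodes transglutaminase 2, which cross-links osteopontin, and was at 0.273 ± 0.0525 TPM in pancreas, 3.38 ± 0.80 TPM in liver and 5.53 ± 1.92 TPM in duodenum (SD, n = 4 each). The log2 difference of pancreas was -4.40 ± 0.30 against duodenum and -3.53 ± 0.29 against liver (SE, adjusted p = 5.63e-07 and 1.03e-05, edgeR). Spp1 and Tgm2 thus lay in opposite order between pancreas and liver. Of the 23 genes of the list, all tested, 0 were called higher and 1 lower in liver than in duodenum (4.35% against 7.32% of all genes). In pancreas 0 were higher and 2 lower than in duodenum (8.70% against 7.7%), and 0 higher and 1 lower than in liver (4.35% against 1.11%). At an unadjusted p under 0.05, 2 were higher and 4 lower in liver than in duodenum, 4 higher and 3 lower in pancreas than in duodenum, and 5 higher and 3 lower in pancreas than in liver (edgeR). DESeq2 called 0 and 3, 2 and 3, and 0 and 1 genes higher and lower in the same order. List medians were 0.05, 0.17 and 0.04 on the log2 scale.

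**Figure D3:**
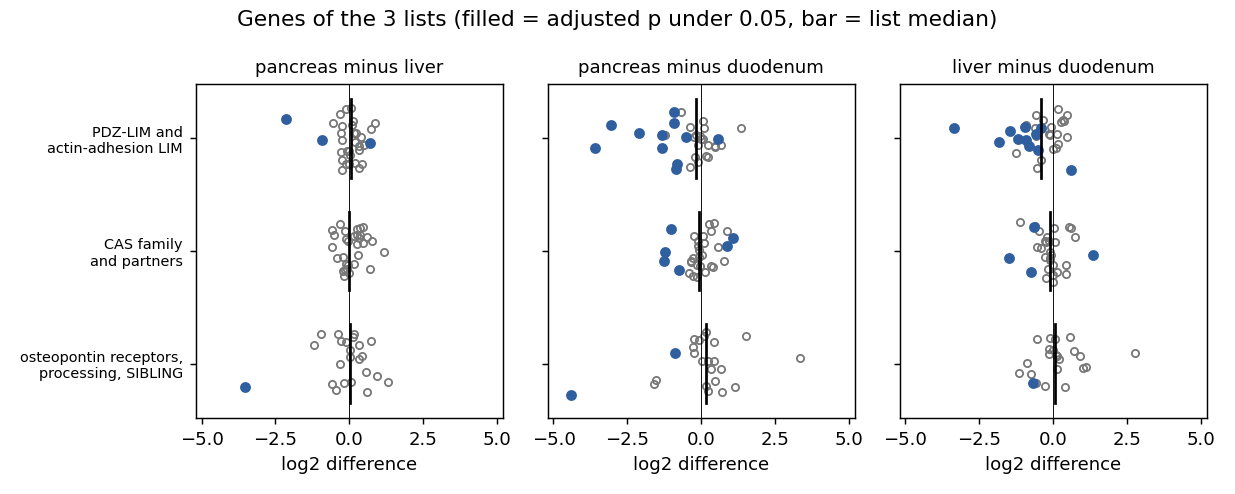
Log2 difference (horizontal axes) of each gene in the PDZ-LIM and actin-adhesion list (32 genes), the CAS list (31) and the osteopontin list (23), in 3 comparisons of organs. Filled points have an adjusted p under 0.05 (edgeR), open points do not, black bars are list medians, and the vertical scatter has no meaning. The called PDZ-LIM and actin-adhesion genes lie mostly below 0 in both comparisons with duodenum.

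The other CAS scaffolds had smaller differences between liver and the other organs than Cass4. Nedd9, the CAS protein of lymphocytes, was at 10.2 ± 1.71 TPM in pancreas, 13.5 ± 3.02 TPM in liver and 11.5 ± 0.91 TPM in duodenum (SD, n = 4 each). Bcar1, which encodes p130Cas, averaged 0.636 ± 0.201 TPM, 0.686 ± 0.1004 TPM and 0.402 ± 0.086 TPM in pancreas, liver and duodenum. Efs, the CAS family gene of thymus, was at 0.300 TPM or lower in every library. None of the 3 passed the test in any comparison (lowest adjusted p = 0.165, for Bcar1 in liver against duodenum, edgeR). Nedd9 had the highest mean TPM of the 4 CAS genes in each organ, and Cass4 came second. By median in liver, however, Bcar1 at 0.724 TPM stood above Cass4 at 0.615 TPM, with Cass4 highest in liver 3 at 1.74 TPM.

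Among partners of CAS proteins, Ptk2, which encodes focal adhesion kinase, was at 6.91 ± 1.87 TPM in pancreas, 5.22 ± 0.66 TPM in liver and 13.1 ± 1.36 TPM in duodenum (SD, n = 4 each). It was lower than in duodenum by -1.50 ± 0.18 in liver and -1.01 ± 0.17 in pancreas (SE, adjusted p = 0.000108 and 0.00199, edgeR). Rac2, the Rac GTPase of blood cells, was lower in pancreas than in duodenum by -1.25 ± 0.19 (adjusted p = 0.000703, edgeR). In liver it was at -0.75 ± 0.19 (adjusted p = 0.0243, edgeR), a call that ended without liver 1 or 4 or duodenum 3 or 4 (adjusted p up to 0.084, edgeR). Dock2, a Rac activator needed for leukocyte migration, was higher in pancreas at 31.9 ± 2.44 TPM, against 16.4 ± 2.74 TPM in duodenum (0.89 ± 0.15, adjusted p = 0.00153, edgeR).

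In all, of 31 CAS genes and partners tested, 1 was higher and 3 were lower in liver than in duodenum (12.9% against 7.32% of all genes), and 2 were higher and 4 lower in pancreas than in duodenum (19.4% against 7.7%). Between pancreas and liver edgeR called 0, with 4 higher and 3 lower at an unadjusted p under 0.05, while DESeq2 called 1 and limma on log2(TPM + 1) called 4. The medians were -0.10, -0.08 and -0.02 in the same order.

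Genes with the most similar pattern to each of the 3 were sought among 8363 named genes with a mean of at least 5 TPM in an organ. Likeness is Pearson's r of log2(TPM + 1) over the 12 libraries, a description without a test. The libraries share their organ in groups of 4, so a high r mostly reflects the 3 organ means. Pdlim1 and Spp1 had r = 0.905, Spp1 and Cass4 0.873, and Pdlim1 and Cass4 0.848. With each organ's mean removed, r was 0.516 for Pdlim1 and Spp1, -0.675 for Spp1 and Cass4, and -0.219 for Pdlim1 and Cass4. Within organs the sign of r thus differed between the pairs. Liver 3 had the lowest Spp1 of the liver libraries, at 2.75 TPM, and the highest Cass4, at 1.74 TPM. How far the r of Spp1 and Cass4 depends on this 1 library was not tested.

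The 6 genes most like Pdlim1 were Mtss1, Anxa1, Gas7, Epcam, Vim and Tff2, with r from 0.938 to 0.960. Mtss1 encodes a membrane-bending protein that binds actin, Anxa1 a phospholipid-binding protein with anti-inflammatory roles, and Vim the intermediate filament vimentin. Mtss1 averaged 10.95 ± 1.31 TPM in pancreas, 1.55 ± 0.29 TPM in liver and 3.43 ± 1.06 TPM in duodenum (SD, n = 4 each). Vim averaged 857 ± 102, 337 ± 38.4 and 433 ± 61.1 TPM in pancreas, liver and duodenum. With organ means removed, Anxa1 kept r = 0.764 and Vim 0.696, while Tff2, a secreted mucosal peptide, had -0.351. The most opposite were Snx22, Hk3 and Trpm2, from -0.948 to -0.933, such as Hk3, a hexokinase, at 6.39 ± 1.41, 32.5 ± 5.24 and 20.1 ± 1.30 TPM in pancreas, liver and duodenum.

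Epcam, an epithelial adhesion molecule that Langerhans cells and some DCs also carry, was the gene most like Spp1, with r = 0.973, and 0.755 with organ means removed. It was at 26.6, 26.7, 26.3 and 21.1 TPM in pancreas replicates 1 to 4, against 4.91, 4.03, 2.45 and 4.46 TPM in liver and 14.6, 10.1, 23.3 and 16.8 TPM in duodenum. As in Spp1, pancreas 4, liver 3 and duodenum 3 were the lowest, lowest and highest of their organ. Ilf2, Asf1b, Pkmyt1, Anxa5 and H2ac8 followed, with r from 0.937 to 0.941. Asf1b is a histone chaperone and Pkmyt1 a kinase that holds back mitosis, at 25.9 ± 4.10 and 17.0 ± 2.73 TPM in pancreas, 13.6 ± 2.67 and 7.99 ± 1.18 TPM in liver and 23.7 ± 4.73 and 13.5 ± 1.89 TPM in duodenum (SD, n = 4 each). Most opposite were Cacna1e, Cd34 and Mup20, from -0.961 to -0.945. Cd34, a sialomucin of progenitors and endothelium, averaged 4.46 ± 0.84, 34.3 ± 3.52 and 5.59 ± 0.22 TPM in pancreas, liver and duodenum.

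The genes most like Cass4 were Bcl2a1a, Mrpl23, Tagln2, Dcstamp, Cd14 and Gpr183, with r from 0.910 to 0.951. Bcl2a1a belongs to a family of near-identical survival genes whose reads can be split between copies, and averaged 187 ± 29.0 TPM in pancreas, 77.1 ± 6.98 TPM in liver and 150 ± 11.4 TPM in duodenum (SD, n = 4 each). Dcstamp, a membrane protein known from cell fusion in osteoclasts, was at 13.4 ± 4.81, 1.80 ± 1.14 and 15.5 ± 5.26 TPM in pancreas, liver and duodenum. Gpr183, the oxysterol receptor that positions DCs, was at 16.5 ± 1.75, 6.64 ± 2.17 and 16.6 ± 2.65 TPM. With organ means removed, r of the 6 ran from 0.128 for Gpr183 to 0.529 for Mrpl23.

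Most opposite to Cass4 were Mup3, Mup7 and Serpina1e, from -0.986 to -0.975, which encode proteins that hepatocytes secrete and which belong to families of near-identical genes. Mup3 was at 12.1, 11.2, 5.16 and 6.84 TPM in liver replicates 1 to 4 and at 0.352 TPM or lower in the other organs. Liver 3 had the lowest Mup3 and the highest Cass4, and liver 1 the highest Mup3 and the lowest Cass4. Mup7 and Serpina1e were also lowest in liver 3 and highest in liver 1. Mup20, named above as opposite to Spp1, was at 9.40, 8.74, 10.7 and 7.26 TPM in liver replicates 1 to 4. It was thus highest in liver 3. With organ means removed, Cass4 and Mup3 had r = -0.727. The part of hepatocyte RNA in the Cass4 values was not tested.

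**Figure D4:**
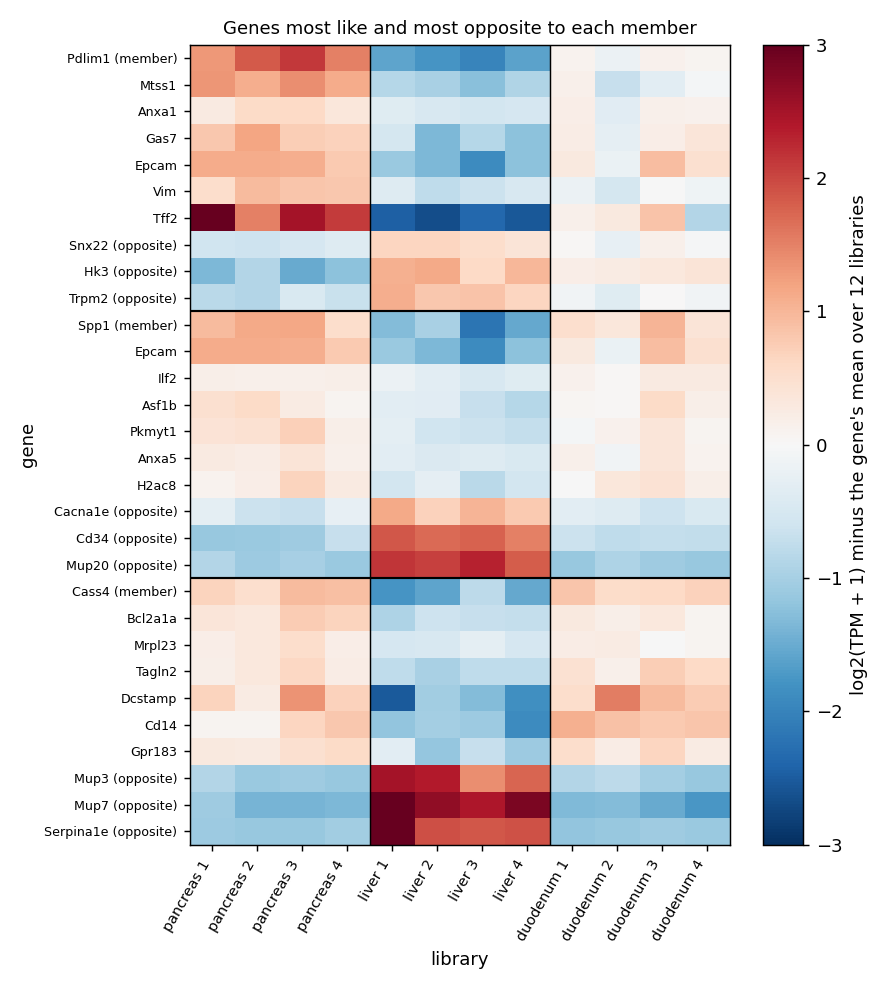
Log2(TPM + 1) minus each gene's mean over the 12 libraries (colour, which ends at -3 and 3), with genes in rows and libraries in columns. Each block holds Pdlim1, Spp1 or Cass4 with the 6 genes most like it and the 3 most opposite. The liver columns are low for the like genes and high for the opposite ones, and Pdlim1 is the one of the 3 that is also higher in pancreas than in duodenum.

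RNA of other cell types was present and was set beside the 3 genes. The 19 acinar genes summed to 9164, 1650, 4189 and 4480 TPM in pancreas replicates 1 to 4, against 8.34 to 10.99 TPM in liver and 7.96 to 27.0 TPM in duodenum. Pancreas 1, highest in acinar RNA, held 19.3, 32.4 and 6.53 TPM of Pdlim1, Spp1 and Cass4. Pancreas 2, lowest in acinar RNA, held 28.6, 36.8 and 5.77 TPM. In duodenum the same genes were at 6.24 to 8.02, 20.8 to 34.0 and 5.96 to 7.49 TPM. The part of acinar RNA in the values of the 3 genes was not tested.

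Pancreatic duct cells also make osteopontin. The 12 duct genes summed to 33.3 to 40.3 TPM in pancreas, 9.06 to 18.7 TPM in liver and 16.4 to 28.1 TPM in duodenum, and Epcam made up most of it in pancreas and duodenum. Without Epcam the other 11 summed to 9.12 to 13.7 TPM in pancreas, 6.61 to 13.8 TPM in liver and 3.596 to 6.23 TPM in duodenum. The keratin genes Krt7, Krt8, Krt18 and Krt19 averaged 5.37, 1.58, 2.26 and 0.562 TPM in pancreas, 4.10, 0.383, 1.055 and 0.235 TPM in liver and 1.88, 0.583, 0.639 and 0.295 TPM in duodenum. Sox9 and Cftr averaged 0.248 and 0.0863 TPM in pancreas, 0.246 and 0.117 TPM in liver and 0.149 and 0.102 TPM in duodenum. In pancreas 4 of the 12 genes stayed under 0.5 TPM in all libraries. The part of duct RNA in the Spp1 values was not tested.

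Macrophages are another source of osteopontin. The 14 macrophage genes summed to 883 to 1016 TPM in pancreas, 507 to 658 TPM in liver and 391 to 551 TPM in duodenum, of which Lyz2, a lysozyme that DCs express too, made up 675 to 805, 332 to 448 and 205 to 271 TPM. Cd68, a lysosomal protein, averaged 174 TPM in pancreas, 167.5 TPM in liver and 238 TPM in duodenum. Timd4 and Cd163 were highest in pancreas, at 10.1 and 0.777 TPM, against 2.67 and 0.391 TPM in liver and 0.605 and 0.293 TPM in duodenum. Csf1r and C1qb were highest in liver, at 4.42 and 1.93 TPM in pancreas, 7.77 and 4.22 TPM in liver and 1.997 and 0.658 TPM in duodenum, while Mrc1 and Marco were at 0.359 TPM or lower in every library. The 12 genes that accompany Spp1 in macrophages summed to 839 to 938 TPM in pancreas, 793 to 905 TPM in liver and 623 to 739 TPM in duodenum. Among them Lgals3 and Cd9 made up most of the sum, at 599 and 196 TPM in pancreas, 497 and 208 TPM in liver and 498 and 144 TPM in duodenum. Cd63 and Apoe averaged 54.8 and 12.4 TPM in pancreas, 34.4 and 77.3 TPM in liver and 3.64 and 22.0 TPM in duodenum. The low genes Trem2, Gpnmb and Arg1 averaged 0.472, 0.529 and 0.483 TPM in pancreas, 0.673, 0.485 and 1.43 TPM in liver and 0.344, 0.625 and 0.858 TPM in duodenum. The macrophage sum was highest in pancreas, mostly through Lyz2, and overlapped between liver and duodenum. Cd68 was highest in duodenum, as was Adgre1, at 1.54, 0.934 and 4.03 TPM in pancreas, liver and duodenum. The part of macrophage RNA in the values of the 3 genes was not tested.

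B and plasma cell genes summed to 1434 TPM in liver 2, 1470 TPM in pancreas 3 and 1700 TPM in pancreas 4, against 98.4 to 109.5 TPM in the other liver and pancreas libraries and 9673 to 14654 TPM in duodenum. Without those 3 libraries, liver minus duodenum was -2.51 for Pdlim1, -2.68 for Spp1 and -2.997 for Cass4 on the log2 scale. Pancreas minus duodenum was then 1.52, 0.30 and -0.28 for the same genes. The PDZ-LIM list had 7 calls in liver against duodenum, 8 in pancreas against duodenum and 1 in pancreas against liver, the CAS list had 2, 5 and 0, and the osteopontin list 0, 2 and 1. Leaving them out also ended the calls of Pdlim5, Rac2 and Itga5 in liver against duodenum, of Actn1 in pancreas against liver, and of Zyx in both comparisons. Islet genes summed to 17.8 to 33.5 TPM in pancreas, 3.92 to 4.61 TPM in liver and 3.06 to 5.27 TPM in duodenum. Endothelial genes summed to 34.7 to 41.5 TPM in pancreas, 29.5 to 36.6 TPM in liver and 60.03 to 78.0 TPM in duodenum. Vwf made up most of that sum, with means of 30.7, 22.6 and 56.9 TPM in pancreas, liver and duodenum. Flt1 was also highest in duodenum, while every other gene of the endothelial list had its highest mean in liver. Sums of stromal, platelet, mast cell and eosinophil, and T and NK cell genes reached at most 34.7 TPM in any library. Monocyte and neutrophil genes summed to 133 to 175 TPM in pancreas, 144 to 165 TPM in liver and 33.0 to 68.8 TPM in duodenum. Most of it in pancreas and liver was Ccr2, with means of 141, 129 and 12.2 TPM in pancreas, liver and duodenum. Ly6c2 had the opposite order, at 6.53, 22.0 and 31.5 TPM, and the other genes of that list averaged at most 2.40 TPM.

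**Figure D5:**
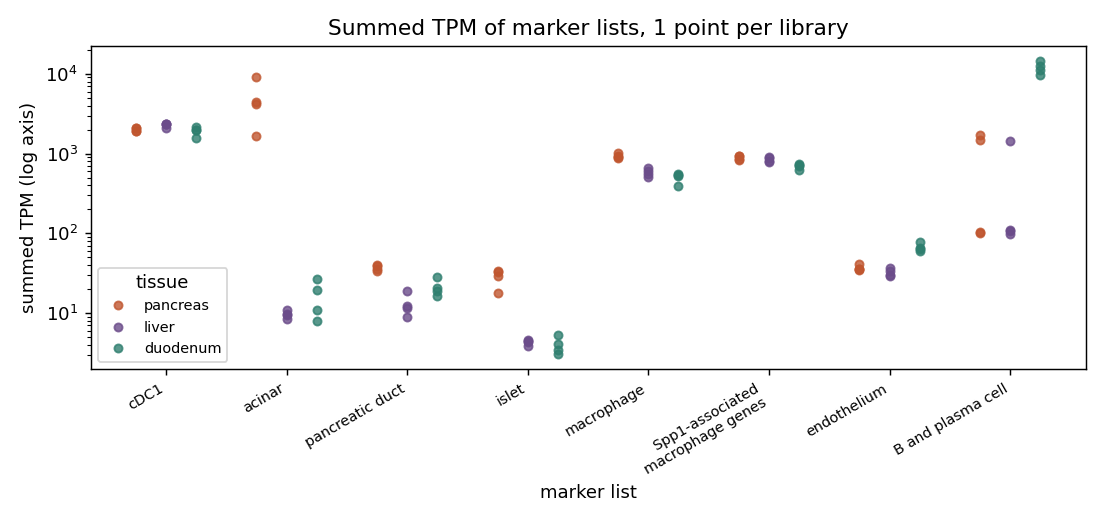
Summed TPM (log axis) of 8 marker lists, with 1 point per library for pancreas, liver and duodenum. Acinar and islet genes stand out in pancreas and B and plasma cell genes in duodenum, with 3 liver and pancreas libraries between 1434 and 1700 TPM.

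Annotated genes overlap 2 of the 3 loci, and the strandedness of the counting is not given. Gm14455, antisense to Cass4, was at 0.203 TPM or lower in every library. Gm42793, on the strand of Spp1, was at 0.320 to 1.10 TPM in pancreas, 0.309 to 1.14 TPM in liver and 0.955 to 3.25 TPM in duodenum, all below the Spp1 level of the same organ.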

How the data were processed

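Sorted CD103+ CD11b- migratory DCs gave 12 libraries, 4 per organ. The deposited tables hold estimated counts, which the authors made with kallisto on GRCm39 per the submitters' processing notes, and TPM, which the authors deposited beside them; strandedness is not given in the sources used here. Counts were rounded to whole numbers, and 0 columns of values lacked a sample. A symbol of an earlier row recurs in 110 rows, and each of the 3 genes has 1 row. Genes passing filterByExpr (minimum count 10) numbered 44624 of 55401. With R 4.3.3, edgeR 4.0.16 (TMM, robust quasi-likelihood fit of the 3 organs together) gave log2 differences, and Benjamini-Hochberg adjustment over all tested genes used a threshold of 0.05. SE is the absolute difference divided by the square root of F. limma 3.58.1 and DESeq2 1.42.0 were alternatives, as were other scalings, filters and left-out libraries. The edgeR script was tested on simulated data.

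The 3 genes, the gene lists and the markers were chosen with earlier results of these data known. Named were, per list and comparison, up to 4 called genes with the largest difference and at least 5 TPM in the higher organ, the 6 most like and 3 most opposite genes (without predicted genes and receptor segments), and the close paralogs, osteopontin receptors and sort markers whatever they showed. Some genes the rule names are not reported here. Trem2, Gpnmb and other single markers were chosen after their values were seen. Each library is a pool of 2 mice, and the sample titles do not say whether same-numbered libraries share mice. Of 4 same-numbered pairs per comparison, 0 had a correlation of deviations over 0.1, which cannot exclude shared mice.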

Additional observations from a re-analysis of the deposited data

Results flagged for a closer look

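In 18 of 222 groups of 4 libraries the highest or lowest library stood apart, with the gap to its neighbour, over the group's range, past Dixon's critical value. Chance flags about 1 group in 20. None was a value of Pdlim1, Spp1 or Cass4. Of genes most like or opposite to them, Epcam was at 21.1 TPM in pancreas 4 (others 26.3 to 26.7), Cd34 at 5.70 TPM in pancreas 4 (others 3.93 to 4.19) and Mup7 at 0.780 TPM in pancreas 1 (others 0.402 to 0.456). In liver, Mrpl23 was at 15.5 TPM in replicate 3, Serpina1e at 20.9 TPM in replicate 1 and Tagln2 at 137 TPM in replicate 2.

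Among paralogs, partners and receptors, Efs was at 0.153 TPM in liver 1 and 0.300 TPM in duodenum 2, Dock2 at 22.2 TPM in liver 4, Itgav at 35.7 TPM in pancreas 1 and Cd44 at 43.9 TPM in duodenum 2. Of the sort markers, Itgam was at 1.30 TPM in liver 4, Itgax at 42.4 TPM in pancreas 3 and Ptprc at 133 TPM in liver 4 and 107 TPM in duodenum 2. Marker sums stood apart at 2117 TPM for cDC1 genes in liver 4, 4.89 TPM for stromal genes in duodenum 2 and 1434 TPM for B and plasma cell genes in liver 2.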

How the results depend on the processing

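Liver minus duodenum stayed below 0 for Pdlim1, Spp1 and Cass4 in 22 of 22 alternatives, as their choice favours, and ran from -2.67 to -1.77, -2.68 to -2.06 and -3.85 to -2.09 on the log2 scale. With limma on log2(TPM + 1), pancreas minus liver was 3.43 for Pdlim1 and 2.17 for Cass4, as the pseudocount understates low genes. Cass4 in pancreas minus duodenum was -0.28 without liver 2, pancreas 3 and pancreas 4, called the immunoglobulin libraries below. The duodenum libraries, whose B and plasma cell genes summed higher still, stayed in that fit. Leaving out 1 library gave 2.89 to 3.84 for Cass4 in pancreas minus liver, 4.05 to 4.42 for Pdlim1 there, and -0.13 to 0.13 for Cass4 in pancreas minus duodenum.

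Counts of calls moved more, and the cause was not tested. In liver against duodenum all genes gave 5051 calls with DESeq2 and 2069 without the immunoglobulin libraries, the PDZ-LIM list 7 without those libraries, and the CAS list 7 at a minimum count of 50, 7 with DESeq2 and 2 without those libraries. The osteopontin list gave 2 with DESeq2 size factors, with limma on log2(TPM + 1) and with the replicate block, 3 at a minimum count of 50 and with DESeq2, and 0 without the immunoglobulin libraries. In pancreas against liver all genes gave 820 calls with library totals, 1153 with DESeq2, 971 and 932 with limma on log2(TPM + 1) and log2(TPM + 0.1), and 177 without the immunoglobulin libraries. The PDZ-LIM list gave 1 there with DESeq2 size factors and without those libraries, and the CAS list 3 with library totals, 4 with limma at either pseudocount, and 1 at a minimum count of 50, with DESeq2 and with only that pair of organs. In pancreas against duodenum all genes gave 1712 without the immunoglobulin libraries, and the osteopontin list 4 with library totals and 5 with DESeq2. Leaving out 1 library gave 2397 to 4807, 343 to 749 and 2596 to 4716 calls in liver against duodenum, pancreas against liver and pancreas against duodenum. In the same order it gave 8 to 15, 0 to 3 and 9 to 14 in the PDZ-LIM list, 2 to 6, 0 to 1 and 4 to 8 in the CAS list, and 0 to 4, 1 to 1 and 2 to 3 in the osteopontin list.

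With the replicate block, liver minus duodenum was -2.48 for Pdlim1, -2.40 for Spp1 and -3.33 for Cass4. Calls over all genes then numbered 2931 in that comparison, 436 in pancreas against liver and 3125 in pancreas against duodenum. Same-numbered libraries had correlations of deviations from -0.04 to 0.09, which cannot show whether they share mice. Each organ has 4 pools, and how precision depends on their number or on depth was not tested.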
